A study of Drosophila melanogaster with 4 samples.

Results

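Hdac3 RNAi was added to wing discs that overexpress PI3K, and the resulting transcriptome was set against that of discs overexpressing PI3K without the RNAi. The comparison was chosen by the sample titles: the array titled for PI3K overexpression together with Hdac3 RNAi, against the array titled for PI3K overexpression, 2 of the 4 arrays in the series. It was read across 11981 named genes, of which 7475 reached a detection floor on both arrays, 362 on 1 of them and 4144 on neither. The genotypes, as the labels spell them, all carry en-Gal4 in a yw background. PI3K plus Hdac3 RNAi has en-Gal4/UAS-PI3K ov together with UAS-Hdac3 RNAi/+, and PI3K has en-Gal4/UAS-PI3K ov without it. The other arrays are Hdac3 RNAi, with en-Gal4/+ and UAS-Hdac3 RNAi/+, and control, with en-Gal4/+ alone. The driver is active in the posterior compartment, so every array with a UAS transgene mixes posterior cells, where it is active, with anterior cells, where it is not. Flies were kept at 25 degrees, discs of 3rd-instar larvae were dissected in PBS, and labelled cRNA was hybridised to Affymetrix arrays. The number of discs and animals behind each array is not given in the sources used here. Each genotype has 1 array, so no replicate spread exists to set a difference against, and no test was made. The small number of arrays sets the precision of the values.

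The wing imaginal disc is the larval epithelium that forms the adult wing and the dorsal thorax, and Hedgehog, Dpp and Wingless signals pattern it while it grows. PI3K acts below the insulin receptor, where it raises the activity of Akt and TOR, promotes cell growth and keeps the transcription factor FOXO out of the nucleus. Hdac3 is a histone deacetylase that works with the corepressor SMRTER (Smr) to hold target genes in a repressed state. The series title names acetylation of histone H4, a mark that deacetylases remove and that is enriched on the male X chromosome in flies.

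Values are scaled intensities, and a ratio is the log2 of PI3K plus Hdac3 RNAi over PI3K, in which 1 unit is a 2-fold difference. The detection floor was an intensity of 26.9, set from 125 probe sets for odorant and gustatory receptors, and a ratio with 1 side under the floor is a bound. For 449 genes with several probe sets above the floor, the probe sets of a gene differed by an SD of 0.23 log2, a measure of error within the arrays. The 9 spiked control probe sets had a median ratio of 0.15 after scaling. Some list medians given below are no larger than that. The PI3K array stood apart from the other 3. Over 7301 genes that reached the floor on all 4 arrays, log2 differences had an SD of 0.346 between PI3K plus Hdac3 RNAi and PI3K, 0.355 between PI3K and Hdac3 RNAi, and 0.302 between PI3K and control. They had an SD of 0.215 to 0.234 between the arrays other than PI3K. The ratio of 3' to 5' probe sets for actin, which is lower where RNA is more intact, was 2.85 with PI3K plus Hdac3 RNAi and 2.02 with PI3K. The same ratio was 3.25 with Hdac3 RNAi and 3.36 in control. For eIF-4a it was 3.67 with PI3K plus Hdac3 RNAi, 3.11 with PI3K, 3.94 with Hdac3 RNAi and 3.95 in control. GAPDH and 18S rRNA differed less between the first pair, at 1.995 with PI3K plus Hdac3 RNAi and 1.92 with PI3K for GAPDH and 4.86 and 4.95 for 18S rRNA, against 2.21 with Hdac3 RNAi and 2.17 in control for GAPDH and 4.77 and 4.87 for 18S rRNA. The part of these array differences in the results below was not tested.

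Of the 7475 genes that reached the floor on both arrays, 29 were higher with PI3K plus Hdac3 RNAi than with PI3K by 2-fold or more (0.388%), and 63 were lower by as much (0.843%). A further 3 genes were higher and 19 lower as bounds of at least 2-fold. The median ratio was -0.03, 43.7% of genes had a positive ratio, and 92.9% lay within 0.5 log2 of 0. The lowest ratio was -4.73 and the highest 3.78. The balance of the sides depended on the threshold, since at 1.5-fold 224 genes were higher and 147 lower. The PI3K array was the lowest of the 4 arrays for 26 of the 29 higher genes and the highest for 57 of the 63 lower genes. PI3K plus Hdac3 RNAi was the highest for 10 of the higher and the lowest for 49 of the lower genes. Over all 7475 genes the PI3K array was the lowest for 2143 and the highest for 3062. PI3K plus Hdac3 RNAi was the highest for 1173 of them and the lowest for 1189. Because the higher and lower genes were picked by the ratio of these 2 arrays, such places are partly set by the choice and only describe the genes. The intensity with PI3K plus Hdac3 RNAi lay within 2-fold of control for 24 of the 29 higher and 42 of the 63 lower genes. Over all genes above the floor on both arrays, it did so for 7415 of 7475, a larger share than in either set.

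**Figure D1:**
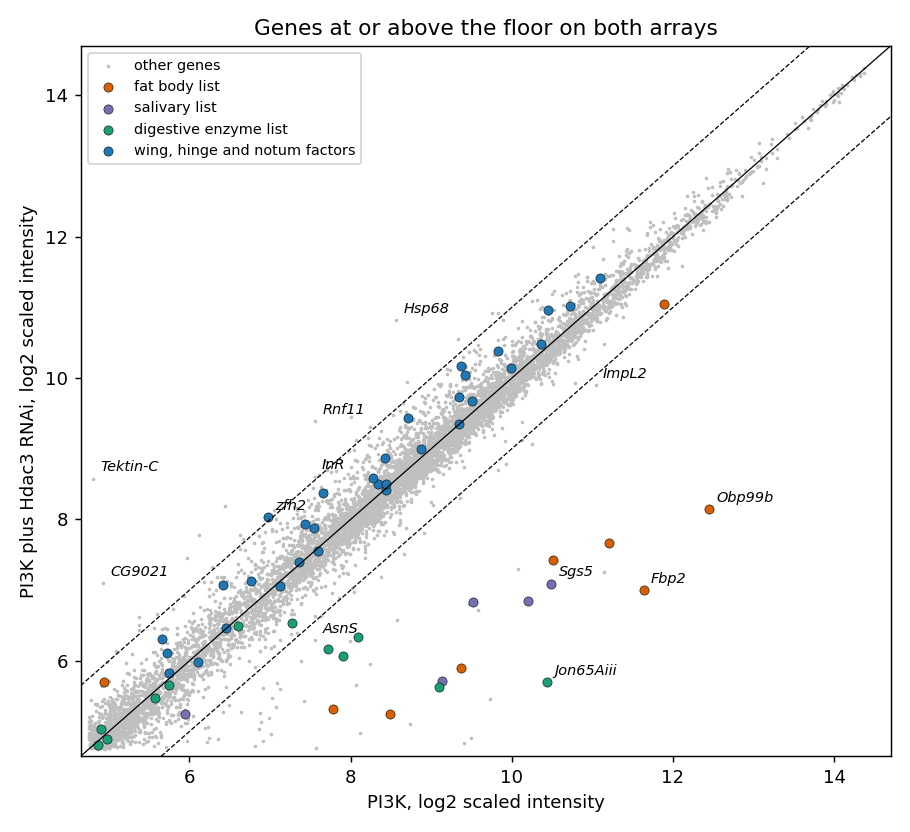
Each point is 1 of the 7475 genes that reached the floor on both arrays, with its log2 scaled intensity with PI3K on the x axis and with PI3K plus Hdac3 RNAi on the y axis. The solid line marks equal values and the dashed lines 2-fold. Most fat body and salivary genes and part of the digestive enzyme genes lie below the lower dashed line, while wing, hinge and notum factors sit mostly just above the line of equality.

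Neither the RNAi target Hdac3 nor the genes for the PI3K subunits that UAS-PI3K could encode are analysed here, and the genotypes therefore rest on the labels alone. The driver gene engrailed (en), which gives posterior cells their identity, had 1376 with PI3K plus Hdac3 RNAi, 1150.1 with PI3K, 1281 with Hdac3 RNAi and 1428 in control. Its ratio was 0.26. Hedgehog (hh), the signal that posterior cells send to anterior ones, had 900.2 with PI3K plus Hdac3 RNAi, 801 with PI3K, 767 with Hdac3 RNAi and 752 in control, a ratio of 0.17. Invected (inv), the paralogue of en beside it, had 254 with PI3K plus Hdac3 RNAi, 227 with PI3K, 215 with Hdac3 RNAi and 49.99 in control, a ratio of 0.16. For inv the control array stood apart from the other 3, which carry a UAS transgene, and what sets it apart was not tested.

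Among genes with more transcript when Hdac3 RNAi was added, Tektin-C had the highest ratio. Its product belongs to the tektins, filament proteins of cilia and flagella. It had 382 with PI3K plus Hdac3 RNAi, 27.9 with PI3K, 350.4 with Hdac3 RNAi and 25.4 in control, so both arrays with the RNAi were high and both without it lay close to the floor or under it. The ratio was 3.78, and the control value under the floor makes the difference with Hdac3 RNAi alone a bound of 3.70. Of the 12 testis and sperm genes measured, Tektin-C was the only one past 2-fold. The others ranged within 0.5 log2, so they did not share its size. Among them, bam, a germline differentiation factor, had a bound of -0.43 and the sperm tubulin betaTub85D had 0.34. Both had intensities close to the floor or under it, and another 28 genes of the list were under the floor on both arrays.

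Hsp68, a heat-inducible chaperone of the Hsp70 family, had 1810.3 with PI3K plus Hdac3 RNAi, 378 with PI3K, 1429.6 with Hdac3 RNAi and 768 in control. Its ratio was 2.26, with PI3K the lowest array and PI3K plus Hdac3 RNAi the highest. Other heat-inducible chaperones had smaller ratios: stv, a co-chaperone of the BAG family, had 0.49, the Hsp40 gene DnaJ-1 had 0.45, and the small heat shock genes Hsp26 and Hsp27 had 0.04 and -0.01. Hsc70-2, a constitutive relative of Hsp70, had 10.7 with PI3K plus Hdac3 RNAi and 47.0 with PI3K, a bound of -0.81. The list of 15 chaperones and heat shock genes had a median of 0.03, with 9 higher and 6 lower, and Hsp68 was its only member past 2-fold. One entry of that list, Coq8, is not a chaperone gene.

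CG9021, known by its number only, had 137 with PI3K plus Hdac3 RNAi, 30.4 with PI3K, 315 with Hdac3 RNAi and 40.6 in control, a ratio of 2.17. As for Tektin-C, both arrays with the RNAi exceeded both arrays without it. CG12773 showed the same order, at 167 with PI3K plus Hdac3 RNAi, 13.6 with PI3K, 171 with Hdac3 RNAi and 15.7 in control, a bound of 2.63. Rnf11, which encodes a RING finger protein, had 673 with PI3K plus Hdac3 RNAi, 189 with PI3K, 859 with Hdac3 RNAi and 388 in control, a ratio of 1.84. The RNAi arrays again held the higher values of Rnf11, and the mean over all its probe sets gave 1.24.

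CG33333 and CG7465 followed another order, in which only PI3K plus Hdac3 RNAi was high. CG33333 had 292 with PI3K plus Hdac3 RNAi, 87.0 with PI3K, 55.1 with Hdac3 RNAi and 77.9 in control, a ratio of 1.75, and CG7465 had 175 with PI3K plus Hdac3 RNAi, 62.5 with PI3K, 63.1 with Hdac3 RNAi and 54.0 in control, a ratio of 1.48. Among bounds, CG14957 had 63.5 with PI3K plus Hdac3 RNAi and 23.4 with PI3K (1.24) and the cuticle gene Cpr11B had 55.6 with PI3K plus Hdac3 RNAi and 19.0 with PI3K (1.05). For these 4 genes the other 3 arrays were all at least 2-fold below PI3K plus Hdac3 RNAi. The remaining bounds named by rule were smaller than 2-fold, at 0.93 for CG5866, 0.68 for pigs and 0.68 for c(3)G.

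Most other higher genes had a low value with PI3K and similar values on the other 3 arrays. The splicing regulator muscleblind (mbl) had 219 with PI3K plus Hdac3 RNAi, 69.8 with PI3K, 177 with Hdac3 RNAi and 171 in control, a ratio of 1.65. Imp, which binds and localises messenger RNAs, had 703 with PI3K plus Hdac3 RNAi, 257 with PI3K, 713 with Hdac3 RNAi and 628 in control, a ratio of 1.45. The RNA-binding cofactor split ends (spen) had 1946 with PI3K plus Hdac3 RNAi and 862 with PI3K (1.17), the poly(A) polymerase gene Gld2 had 98.6 with PI3K plus Hdac3 RNAi and 41.5 with PI3K (1.25), and the RNA-binding gene shep had 101 with PI3K plus Hdac3 RNAi and 48.3 with PI3K (1.07). The probe sets of 3 of these genes did not move together: they spanned -0.24 to 1.49 for Imp, -0.27 to 1.17 for spen and -0.10 to 1.07 for shep. For mbl they spanned 0.47 to 1.79, all on the same side. Of the 29 higher genes, 9 had several probe sets above the floor, and in 6 of those all probe sets had the same sign. Over all genes with several probe sets above the floor this held for 287 of 449, a similar share.

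Headcase (heca), which acts in imaginal cell differentiation, had 1495 with PI3K plus Hdac3 RNAi and 645 with PI3K (1.21). The bZIP factor gene Atf3 had 90.5 with PI3K plus Hdac3 RNAi and 41.4 with PI3K (1.13). Of zinc finger factors, mamo was at 86.7 with PI3K plus Hdac3 RNAi and 41.6 with PI3K (1.06) and chinmo was at 70.1 with PI3K plus Hdac3 RNAi and 34.0 with PI3K (1.04), and mei-P26, a growth regulator of the TRIM family, had 160.1 with PI3K plus Hdac3 RNAi and 77.95 with PI3K (1.04). The 2 probe sets of mamo disagreed, at 0.03 and 1.06. CG11509 had 985 with PI3K plus Hdac3 RNAi and 417 with PI3K (1.24), CG5645 had 220.4 with PI3K plus Hdac3 RNAi and 99.1 with PI3K (1.15) and hzg had 456 with PI3K plus Hdac3 RNAi and 204 with PI3K (1.16). Further genes past 2-fold were 14-3-3zeta (1.10), the receptor phosphatase gene Ptp99A (1.05), Sdb (1.01) and CG13482, which lay at the threshold. The 2 Ptp99A probe sets above the floor also disagreed, at 0.17 and 1.05. The Sex-lethal gene Sxl, the master switch of female development and of dosage compensation, had 633 with PI3K plus Hdac3 RNAi, 302 with PI3K, 617 with Hdac3 RNAi and 561 in control, a ratio of 1.07, with its probe sets at 0.86 and 1.07. Only the PI3K array was low for Sxl. Other markers of sex differed less: the female splicing factor gene tra had 0.09, msl-2, the male-specific subunit of the dosage compensation complex, had 0.10, and the yolk protein gene Yp3 had -0.38.

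**Figure D2:**
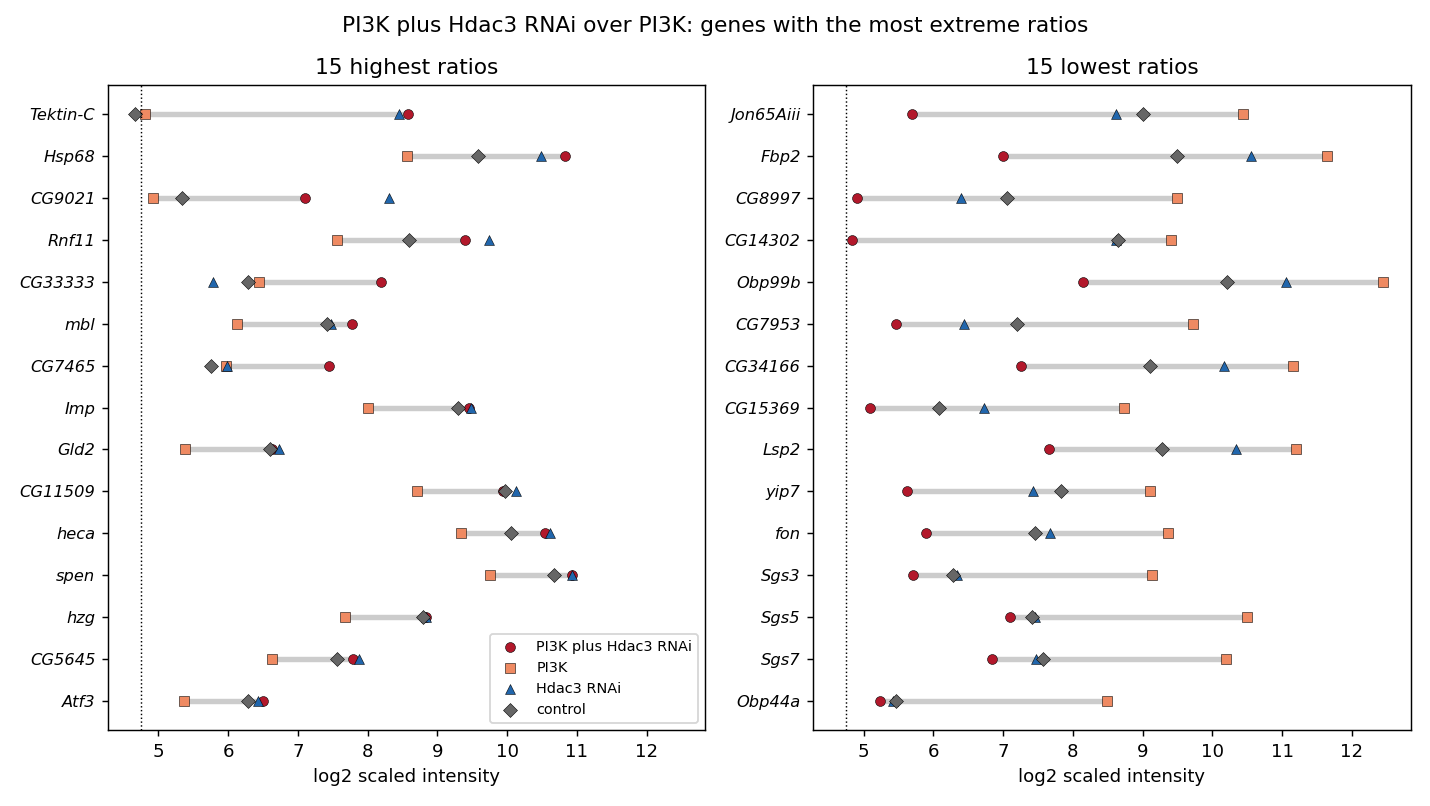
Log2 scaled intensity on each of the 4 arrays for the 15 genes with the highest ratios (left) and the 15 with the lowest (right), with a grey bar between PI3K plus Hdac3 RNAi and PI3K and a dotted line at the floor. In the left panel the PI3K array is mostly the lowest point, and Tektin-C and CG9021 split by the presence of the RNAi. In the right panel the PI3K array is the highest point in all 15 genes and PI3K plus Hdac3 RNAi the lowest.

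The lowest ratios belonged mostly to genes known from the larval fat body, salivary gland and gut. Fat body genes led: 7 of 9 measured members were at least 2-fold lower with PI3K plus Hdac3 RNAi, with a median ratio of -3.24, against a median of -0.03 and 0.843% of all genes. The summed intensity of the list was 3095 with PI3K plus Hdac3 RNAi and 17662 with PI3K, 9953 with Hdac3 RNAi and 5921 in control. In discs profiled whole, fewer cells of a type and less RNA per cell cannot be told apart. Fbp2, a protein abundant in the larval fat body, had 128 with PI3K plus Hdac3 RNAi, 3188 with PI3K, 1507 with Hdac3 RNAi and 719 in control, a ratio of -4.64. Obp99b, a small carrier protein of the odorant-binding family, had 283 with PI3K plus Hdac3 RNAi, 5593 with PI3K, 2132 with Hdac3 RNAi and 1189 in control, a ratio of -4.31. Lsp2, a larval serum storage protein, had 203 with PI3K plus Hdac3 RNAi, 2358 with PI3K, 1297 with Hdac3 RNAi and 622 in control, a ratio of -3.54. In all 3 of these genes PI3K plus Hdac3 RNAi was the lowest array and PI3K the highest.

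The clotting protein gene fondue (fon) had 59.6 with PI3K plus Hdac3 RNAi and 660.4 with PI3K (-3.47), Obp44a had 37.8 with PI3K plus Hdac3 RNAi and 358 with PI3K (-3.24), and the serum protein receptor gene Fbp1 had 171 with PI3K plus Hdac3 RNAi and 1458 with PI3K (-3.09). The lipoprotein gene apolpp, which carries lipid from fat body to other tissues, had 40.0 with PI3K plus Hdac3 RNAi and 219.6 with PI3K (-2.46). Below 2-fold, regucalcin had 2121 with PI3K plus Hdac3 RNAi and 3796 with PI3K (-0.84). Apoltp, which loads lipid onto the lipoprotein, was the member on the other side, at 51.8 with PI3K plus Hdac3 RNAi and 30.6 with PI3K (0.76). Transcripts of the fat body list were thus still detected on the array with both transgenes, where all 9 measured members were at or above the floor. Which cells these transcripts came from was not tested.

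Salivary glue genes, which late larvae use to attach to a surface, were high on the PI3K array alone. Sgs5 had 136 with PI3K plus Hdac3 RNAi, 1441 with PI3K, 176 with Hdac3 RNAi and 171 in control, a ratio of -3.40. Sgs3 had 52.3 with PI3K plus Hdac3 RNAi and 562 with PI3K (-3.43), Sgs7 had 114 with PI3K plus Hdac3 RNAi and 1174 with PI3K (-3.36) and Sgs8 had 114 with PI3K plus Hdac3 RNAi and 731 with PI3K (-2.69), while Sgs4 was under the floor with both transgenes, a bound of -2.84. In sum, the 7 measured members had 487 with PI3K plus Hdac3 RNAi and 4212 with PI3K, 681 with Hdac3 RNAi and 664 in control. Both the salivary and the fat body sum were highest with PI3K and lowest with PI3K plus Hdac3 RNAi.

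Digestive enzyme genes of the gut had 6 of 13 measured members at least 2-fold lower, bounds included, and a median of -0.74. Over all genes, 0.843% of those above the floor on both arrays were as low, as were 19 of the 362 bounds. Another 24 digestive enzyme genes were under the floor on both arrays. The list's median depended on the floor: it was -0.08 with a lower floor, -0.026 without one on log2(value + 16), and -1.44 with a floor of 100. The serine protease gene Jon65Aiii had 51.9 with PI3K plus Hdac3 RNAi, 1382 with PI3K, 392 with Hdac3 RNAi and 515 in control, a ratio of -4.73, the lowest ratio of all genes above the floor on both arrays. Its neighbour in the family, Jon65Aiv, had 16.1 with PI3K plus Hdac3 RNAi, 1792 with PI3K, 530.4 with Hdac3 RNAi and 566 in control, a bound of -6.06. The protease gene yip7 had 49.4 with PI3K plus Hdac3 RNAi and 548 with PI3K (-3.47), Jon25Bii had 81.1 with PI3K plus Hdac3 RNAi and 272 with PI3K (-1.75) and the lysozyme gene LysS had 66.9 with PI3K plus Hdac3 RNAi and 240.5 with PI3K (-1.85). Other members did not share the difference, with the trypsin gene betaTry at -0.11 and Jon66Ci at 0.14. The sums over the 13 measured members were 705 with PI3K plus Hdac3 RNAi and 4891 with PI3K, 1847 with Hdac3 RNAi and 1946 in control.

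Several genes known by number only had ratios as low. CG8997 had 30.1 with PI3K plus Hdac3 RNAi, 723 with PI3K, 84.2 with Hdac3 RNAi and 133 in control, a ratio of -4.59, and CG7953, which lies beside it on chromosome arm 2L, had 44.0 with PI3K plus Hdac3 RNAi, 848 with PI3K, 86.7 with Hdac3 RNAi and 147 in control, a ratio of -4.27. CG14302 had 28.5 with PI3K plus Hdac3 RNAi and 676 with PI3K (-4.57), CG34166 had 153 with PI3K plus Hdac3 RNAi and 2273 with PI3K (-3.90) and CG15369 had 34.3 with PI3K plus Hdac3 RNAi and 426 with PI3K (-3.64). As bounds, CG31789 had -3.76, CG32302 had -2.50, CG34296 had -2.45 and CG6870 had -2.33. In CG8997, CG7953, CG14302, CG34166 and CG15369, PI3K plus Hdac3 RNAi was the lowest of the 4 arrays and PI3K the highest. Without the members of the fat body, salivary, digestive enzyme and odorant-binding lists, 46 of 7438 genes were still at least 2-fold lower, so those lists do not hold most of the lower genes.

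Lower genes tended to be small and some adjoined one another. Their median span from start to end was 1673 bp, against 20784.5 bp for the higher genes and 2696 bp for all genes. Of the 82 lower genes that could be placed, bounds included, 20 had another lower gene within 10000 bp, and none of the 31 placed higher genes had a higher one. The sets differ in number and span, and the share of all measured genes with such a neighbour was not counted. The contrast therefore cannot be read as clustering of the lower genes. Beside CG8997 and CG7953, the adjoining genes included Sgs8, Sgs7 and Sgs3 on chromosome arm 3L and CG16704, CG16713 and IM33 on chromosome arm 2L. Adjoining genes of a family can be alike in sequence and in tissue, and their values are not independent.

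Genes that pattern the wing were higher with PI3K plus Hdac3 RNAi than with PI3K, nearly all by less than 2-fold. All 32 measured transcription factors of the wing, hinge and notum reached the floor on both arrays, and they include the defining markers of the labelled tissue. Of these, 28 were higher and 4 lower, with a median of 0.32, where 43.7% of all genes had a positive ratio. The hinge factor zfh2 had 261 with PI3K plus Hdac3 RNAi, 125 with PI3K, 278 with Hdac3 RNAi and 268 in control, a ratio of 1.06, the only member past 2-fold. The Dpp target bi had 1156 with PI3K plus Hdac3 RNAi, 664 with PI3K, 1319 with Hdac3 RNAi and 1059 in control, a ratio of 0.80. The wing selector vestigial (vg) had 1056 with PI3K plus Hdac3 RNAi, 687 with PI3K, 1172 with Hdac3 RNAi and 992 in control, a ratio of 0.62. In all 3 of these genes PI3K was the low array and the other 3 lay close together.

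Targets of the signals that organise the disc followed the same order. The 7 Wingless pathway genes were all higher, with a median of 0.39. Dll, a distal target, had 691 with PI3K plus Hdac3 RNAi and 419.5 with PI3K (0.72), and the feedback inhibitor nkd had 1216 with PI3K plus Hdac3 RNAi and 782 with PI3K (0.64). Of 10 Hedgehog reception and anterior genes, 9 were higher, with a median of 0.28. The factor cubitus interruptus (ci), which carries out the Hedgehog response in anterior cells, had 2406 with PI3K plus Hdac3 RNAi, 1478 with PI3K, 2771 with Hdac3 RNAi and 2455 in control, a ratio of 0.70. The anterior target knot (kn) had 331 with PI3K plus Hdac3 RNAi and 201 with PI3K (0.72), and Su(fu), a negative regulator of ci, was the member on the other side, at 552 with PI3K plus Hdac3 RNAi and 660.0 with PI3K (-0.26). Dpp pathway genes had a median of 0.16, with 10 of 15 higher, among them the repressor gene shn at 1130.4 with PI3K plus Hdac3 RNAi and 724 with PI3K (0.64) and the target salm at 2005 with PI3K plus Hdac3 RNAi and 1404 with PI3K (0.51). The dpp gene itself had 659 with PI3K plus Hdac3 RNAi and 529.6 with PI3K (0.31).

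All 12 measured genes of EGF receptor signalling were higher, with a median of 0.32. Sprouty (sty), an inhibitor that the pathway itself induces, had 557 with PI3K plus Hdac3 RNAi, 269 with PI3K, 619 with Hdac3 RNAi and 543 in control, a ratio of 1.05, with its probe sets at 0.77 and 1.05. The repressor gene aop, whose product is switched off by the pathway, had 1676 with PI3K plus Hdac3 RNAi and 1078 with PI3K (0.64), and Star (S), needed to process the ligand, had 428 with PI3K plus Hdac3 RNAi and 307 with PI3K (0.48). The ligand gene spi had a smaller ratio, 0.26. Notch-responsive E(spl) and Bearded genes had 11 of 12 higher with a median of 0.23, led by E(spl)m4-BFM at 0.76. Notch receptor and cofactor genes had a median of 0.29 over 7 genes, which was 0.06 when probe sets that can match several transcripts were left out. In the Fat and Hippo list, 11 of 18 were higher, with a median of 0.13 and the growth inhibitor ex at 0.67.

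Axon guidance and cell contact genes had a median of 0.57, with all 13 measured members higher. Sema1a, a transmembrane semaphorin, had 107 with PI3K plus Hdac3 RNAi, 55.4 with PI3K, 101 with Hdac3 RNAi and 139 in control, a ratio of 0.95. The immunoglobulin family gene plum had 483 with PI3K plus Hdac3 RNAi and 294 with PI3K (0.71), and the leucine-rich repeat gene caps had 279 with PI3K plus Hdac3 RNAi and 171 with PI3K (0.70). None reached 2-fold. The list's median was 0.34 under a lower floor, 0.37 with a floor of 100 or the mean of all probe sets and 0.32 without a floor, each below the Wingless list's under the same setting (0.39, 0.50, 0.39 and 0.38). Their median span was 37798 bp. Over 7445 genes with a known span, longer genes had higher ratios, with a Spearman rho of 0.32 across genes, which are not independent replicates. Subtracting from each gene the median ratio of genes of similar span lowered the list medians: to 0.37 for guidance, 0.15 for wing, hinge and notum factors, 0.31 for Wingless, 0.20 for Hedgehog, 0.07 for Dpp, 0.19 for EGF receptor and 0.12 for Notch receptor genes. The 3' to 5' ratios of actin and eIF-4a above differ between the same pair of arrays, and their part in the patterning lists was not tested.

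**Figure D3:**
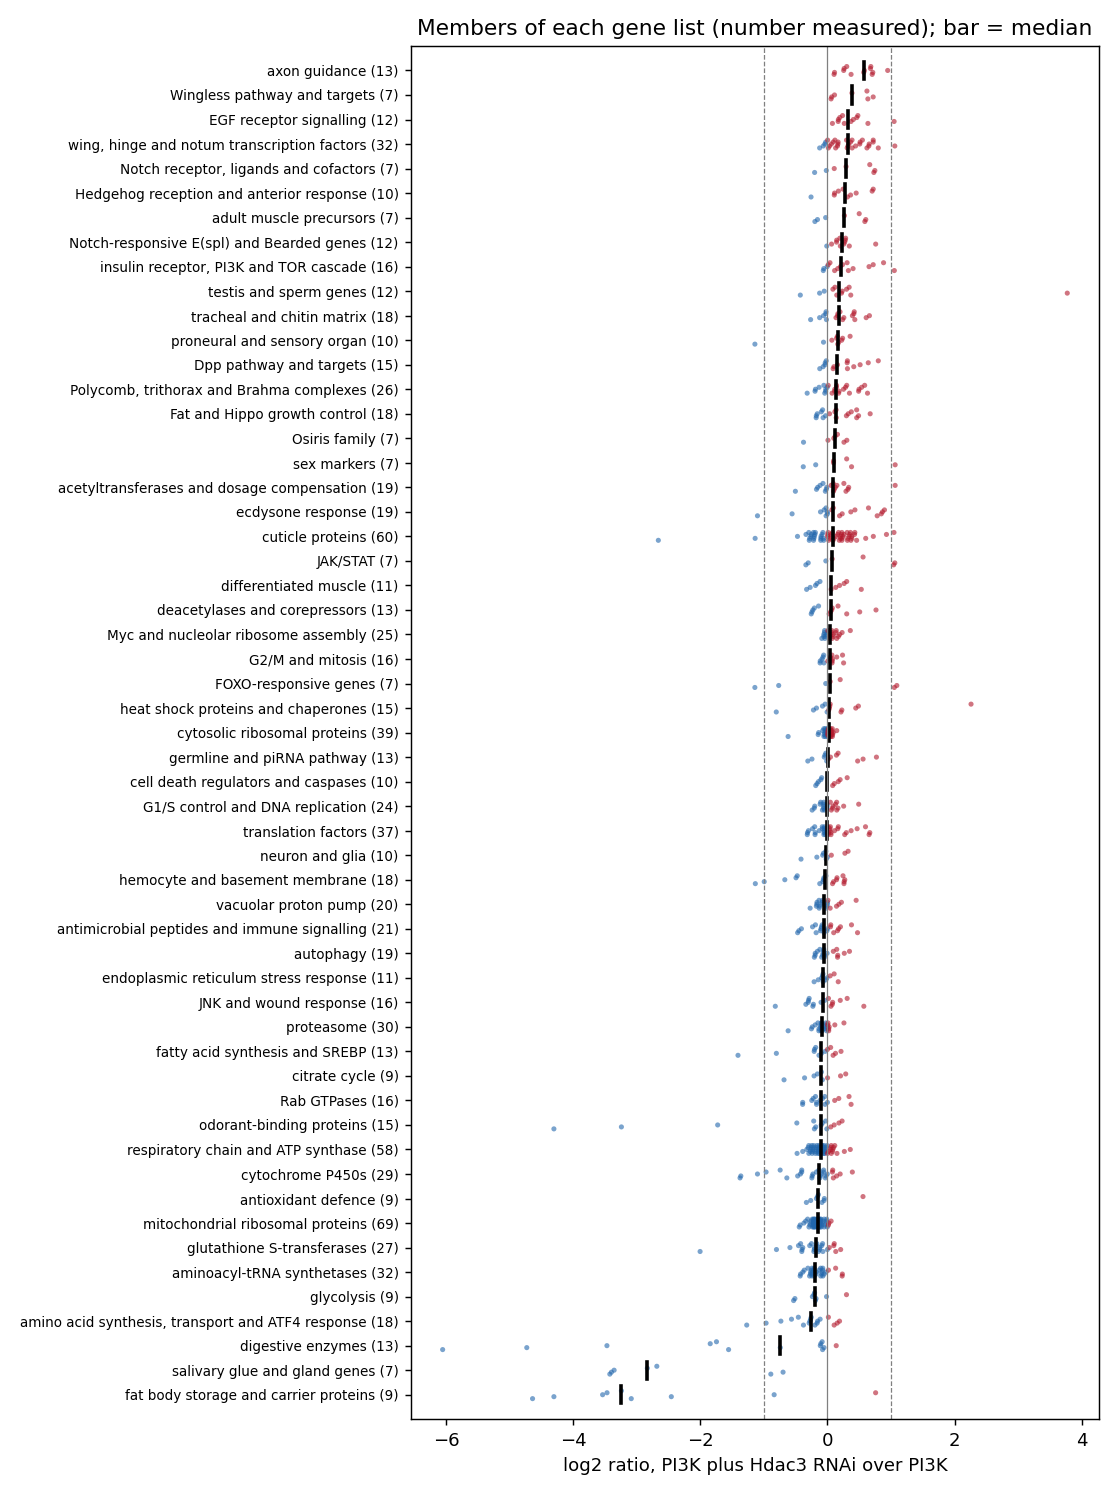
Each row is a gene list with at least 7 measured members, and each point is the log2 ratio of 1 member, PI3K plus Hdac3 RNAi over PI3K, red when positive and blue when negative. The black bar is the list median and the dashed lines mark 2-fold. Medians run from -3.24 in the fat body list to 0.57 in the axon guidance list, and most lists lie within 0.4 log2 of 0.

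The insulin receptor and kinases that act around PI3K were higher when Hdac3 RNAi was added. The insulin receptor gene InR, which FOXO switches on in cells short of insulin signal, had 389.8 with PI3K plus Hdac3 RNAi, 188 with PI3K, 541 with Hdac3 RNAi and 465 in control, a ratio of 1.05. S6k, the ribosomal protein kinase below TOR, had 1111 with PI3K plus Hdac3 RNAi, 602 with PI3K, 1284 with Hdac3 RNAi and 1025 in control, a ratio of 0.88. Akt, the kinase that PI3K activates, had 799 with PI3K plus Hdac3 RNAi, 485 with PI3K, 937 with Hdac3 RNAi and 836 in control, a ratio of 0.72. The foxo gene had 152 with PI3K plus Hdac3 RNAi and 96.8 with PI3K (0.65). Of 16 measured genes of the cascade, 13 were higher with a median of 0.22, and InR alone passed 2-fold. After the adjustment for span the median was 0.12. For InR, S6k, Akt and foxo the PI3K array was low, and PI3K plus Hdac3 RNAi was within 0.3 log2 of control. Their log2 ratios over control, which share the control array, were -0.25, 0.12, -0.07 and -0.04 with PI3K plus Hdac3 RNAi and -1.31, -0.77, -0.79 and -0.69 with PI3K.

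FOXO-responsive genes had a median of 0.04 over 7 genes, which was 0.51 with a floor of 100. Scylla (scyl), an inhibitor of TOR, had 1943 with PI3K plus Hdac3 RNAi, 912 with PI3K, 1784 with Hdac3 RNAi and 1556 in control, a ratio of 1.09, in the same direction as InR. ImpL2, a secreted protein that binds and blocks insulin-like peptides, had 954 with PI3K plus Hdac3 RNAi, 2106 with PI3K, 812 with Hdac3 RNAi and 1195 in control, a ratio of -1.14, in the opposite direction. The lipocalin gene NLaz was under the floor with PI3K plus Hdac3 RNAi, a bound of -0.77, and Pepck1, which serves gluconeogenesis, had -0.03. Genes of growth machinery differed little: cytosolic ribosomal proteins had a median of 0.02 over 39 genes, nucleolar and Myc genes 0.05 over 25, and translation factors -0.01 over 37. No member of these 3 lists passed 2-fold.

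Mitochondrial ribosomal proteins were lower in 66 of 69 members, by small amounts, with a median of -0.16. The members with the largest ratios were mRpS31 (-0.44), mRpS14 (-0.43) and mRpL36 (-0.37). Aminoacyl-tRNA synthetases, which charge transfer RNAs, were lower in 28 of 32 with a median of -0.19, among them HisRS at 449.6 with PI3K plus Hdac3 RNAi and 606 with PI3K (-0.43) and SerRS at 2095 with PI3K plus Hdac3 RNAi and 2741 with PI3K (-0.39). Respiratory chain subunits were lower in 45 of 58 (median -0.10). No gene of these 3 lists passed 2-fold. Proteasome subunits were lower in 23 of 30 (median -0.09). After the adjustment for gene span the medians of these lists were -0.09 for mitochondrial ribosomal proteins, -0.10 for the synthetases, -0.05 for the respiratory chain and 0.0012 for the proteasome.

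Enzymes of metabolism were mostly lower as well. Glycolysis had 8 of 9 genes lower, with a median of -0.20. Phosphofructokinase (Pfk), which commits sugar to the pathway, had 997 with PI3K plus Hdac3 RNAi and 1443 with PI3K (-0.53), phosphoglycerate kinase (Pgk) had 1864 with PI3K plus Hdac3 RNAi and 2659 with PI3K (-0.51), and hexokinase A (Hex-A) was the member on the other side at 0.30. Amino acid synthesis and transport genes had 14 of 18 lower and a median of -0.26. Asparagine synthetase (AsnS) was the only one past 2-fold, at 78.3 with PI3K plus Hdac3 RNAi, 189 with PI3K, 62.8 with Hdac3 RNAi and 195 in control and a ratio of -1.27. Both arrays with the RNAi were low for AsnS and both without it were high. Glutamine synthetase 1 (Gs1) had 118 with PI3K plus Hdac3 RNAi and 231 with PI3K (-0.97), and the phosphoserine phosphatase gene aay, which makes serine, had 73.6 with PI3K plus Hdac3 RNAi and 122 with PI3K (-0.73).

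In fatty acid synthesis, acetyl-CoA synthase (AcCoAS), which makes acetyl-CoA from acetate, had 51.3 with PI3K plus Hdac3 RNAi, 136 with PI3K, 58.3 with Hdac3 RNAi and 79.4 in control, a ratio of -1.41. Fatty acid synthase 1 (FASN1) had 554 with PI3K plus Hdac3 RNAi and 968 with PI3K (-0.80), and the list of 13 had a median of -0.09. Detoxification families were lower in most members: 22 of 27 glutathione S-transferases (median -0.17) and 23 of 29 cytochrome P450s (median -0.14). Adjusted for span, these medians were -0.11 and -0.07. GstE3 had 95.3 with PI3K plus Hdac3 RNAi, 383 with PI3K, 129.8 with Hdac3 RNAi and 123 in control, a ratio of -2.01. Cyp4d1 had 38.6 with PI3K plus Hdac3 RNAi and 99.3 with PI3K (-1.36), and Cyp6g1, known for insecticide resistance, was under the floor with both transgenes, a bound of -1.38. For GstE3, Cyp4d1 and AcCoAS the PI3K array was the highest of the 4.

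Cyp18a1, the enzyme that inactivates ecdysone, differed from Cyp4d1 and Cyp6g1 in its order across arrays. It had 224 with PI3K plus Hdac3 RNAi, 480.0 with PI3K, 265 with Hdac3 RNAi and 533 in control, a ratio of -1.10, and its 2 probe sets gave -1.10 and -1.06. Both arrays with the RNAi were low. Some other P450s shared this, among them Cyp6d2, with smaller ratios of -0.75 with PI3K and -0.82 without it. The ecdysone list members with the highest ratios stayed under 2-fold. Of these, ftz-f1, a late nuclear receptor, had 87.9 with PI3K plus Hdac3 RNAi and 47.2 with PI3K (0.90). The ecdysone receptor gene EcR had 203 with PI3K plus Hdac3 RNAi and 112 with PI3K (0.87). The early factor broad (br) had 3719 with PI3K plus Hdac3 RNAi and 2067 with PI3K (0.85). The ecdysone list had 11 higher and 8 lower of 19 measured, with a median of 0.09, and Cyp18a1 was its only member past 2-fold. For ftz-f1, EcR and br the PI3K array was the lowest of the 4.

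Blood cell genes differed among themselves. The prophenoloxidases of crystal cells were lower, with PPO1 at 443 with PI3K plus Hdac3 RNAi, 973 with PI3K, 447 with Hdac3 RNAi and 767 in control, a ratio of -1.14, and PPO2 at 559.6 with PI3K plus Hdac3 RNAi, 1116 with PI3K, 579 with Hdac3 RNAi and 854 in control, a difference just short of 2-fold. For both, the 2 arrays with the RNAi were lower than the 2 arrays without it. The blood cell factor srp had 35.4 with PI3K plus Hdac3 RNAi and 56.3 with PI3K (-0.67). Hml, a marker of larval plasmatocytes, had -0.06 and the hemocyte surface protein gene He had -0.02. Other members of the list lay further from 0 on either side, with NimB2 at -0.50, NimC1 at -0.48, eater at 0.26 and crq at 0.27. The whole list of 18 had a median of -0.04 with 8 higher. Markers of other tissues near the disc had few members past 2-fold: none of 7 muscle precursor genes (median 0.27), none of 11 differentiated muscle genes (0.06), none of 18 tracheal and chitin matrix genes (0.18) and none of 10 neuron and glia genes (-0.02).

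Cuticle protein genes had 38 higher and 22 lower of 60 measured, with a median of 0.08. Cpr64Ac had 112 with PI3K plus Hdac3 RNAi, 707 with PI3K, 55.5 with Hdac3 RNAi and 165 in control, a ratio of -2.66, and Cpr47Ee had 38.8 with PI3K plus Hdac3 RNAi and 85.3 with PI3K (-1.14). Inscuteable (insc), an adaptor that orients the spindle in dividing neural precursors, was the only member of 10 proneural and sensory organ genes past 2-fold, at 183 with PI3K plus Hdac3 RNAi, 403 with PI3K, 173 with Hdac3 RNAi and 389 in control and a ratio of -1.14. Both arrays with the RNAi were low for insc. Cell cycle, cell death and JNK lists held no member past 2-fold, with medians of -0.01 for 24 genes of G1/S and replication, 0.04 for 16 of mitosis, -0.01 for 10 of cell death and -0.07 for 16 of JNK and wounds. Of the JNK list, the stress gene Gadd45 had 295 with PI3K plus Hdac3 RNAi and 521 with PI3K (-0.82). Of the JAK/STAT list of 7, the pathway's targets zfh2 and chinmo passed 2-fold, Stat92E, its transcription factor, had 680.3 with PI3K plus Hdac3 RNAi and 461 with PI3K (0.56), and the median was 0.07.

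Genes of the chromatin machinery to which Hdac3 belongs had a median of 0.05 over 13 deacetylases and corepressors, with none past 2-fold. Smr, the corepressor that partners Hdac3, had 1166 with PI3K plus Hdac3 RNAi, 686 with PI3K, 1390.0 with Hdac3 RNAi and 1046 in control, a ratio of 0.76, with PI3K the low array. MTA1-like, of the nucleosome remodelling and deacetylase complex, had 587 with PI3K plus Hdac3 RNAi and 413 with PI3K (0.51), HDAC1 had 0.17 and HDAC4 0.30. Among 19 acetyltransferase and dosage compensation genes, with a median of 0.09, the histone acetyltransferase gene Hat1 had 303 with PI3K plus Hdac3 RNAi and 429.7 with PI3K (-0.51). The enzyme that acetylates H4 on the male X, mof, had -0.01, and its partner msl-1 had 0.33. Polycomb, trithorax and Brahma genes had 17 of 26 higher and a median of 0.13, led by Asx (0.63), skd (0.59) and trx (0.54).

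Chromosome 4, the small and largely heterochromatic autosome, stood apart from the other chromosome arms. Its 41 genes measured on both arrays had a median ratio of 0.46 (interquartile range 0.17 to 0.67), and 34 of them (82.9%) were higher with PI3K plus Hdac3 RNAi. Medians of the other arms lay between -0.04 on 3R and -0.02 on 3L, and the X chromosome, at -0.03 over 1264 genes, lay within the range of the autosomal arms. Past 2-fold, 3 genes of chromosome 4 were higher, Rnf11, zfh2 and CG33978, and 1 was lower, the fat body lipoprotein gene apolpp. CG33978 had 397 with PI3K plus Hdac3 RNAi, 195 with PI3K, 390.5 with Hdac3 RNAi and 442 in control, a ratio of 1.03. The Mediator subunit gene MED26 had 1265 with PI3K plus Hdac3 RNAi, 671 with PI3K, 1299 with Hdac3 RNAi and 1170.4 in control, a ratio of 0.92. The general transcription factor gene Taf3 had 1070.3 with PI3K plus Hdac3 RNAi and 588 with PI3K (0.86), the semaphorin receptor gene PlexB had 852 with PI3K plus Hdac3 RNAi and 531 with PI3K (0.68), and the translation initiation factor gene eIF4G1 had 2844 with PI3K plus Hdac3 RNAi and 1806 with PI3K (0.66). In these genes the PI3K array was the low one.

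The difference on chromosome 4 was not shared by every gene there. The ATP synthase subunit gene ATPsynbeta had 3479.7 with PI3K plus Hdac3 RNAi and 3822 with PI3K (-0.14), the proteasome shuttle gene Rad23 had 1778 with PI3K plus Hdac3 RNAi and 1962 with PI3K (-0.14) and CG31997 had 5000.5 with PI3K plus Hdac3 RNAi and 5286 with PI3K (-0.08). Side by side, the chromosome 4 median was 0.46 for PI3K plus Hdac3 RNAi over PI3K and 0.07 for Hdac3 RNAi over control, while over the shared control array it was -0.02 for PI3K plus Hdac3 RNAi and -0.47 for PI3K. Genes of chromosome 4 are long, with a median span of 10484 bp. Within the longest of 4 equal classes of genes by span, 30 genes of chromosome 4 had a median of 0.52, with 27 higher, and 1831 genes of the other chromosomes had a median of 0.11, with 1240 higher. Chromosome 4 thus had the higher median among long genes too. The part of the array's 3' to 5' ratio in it was not tested.

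**Figure D4:**
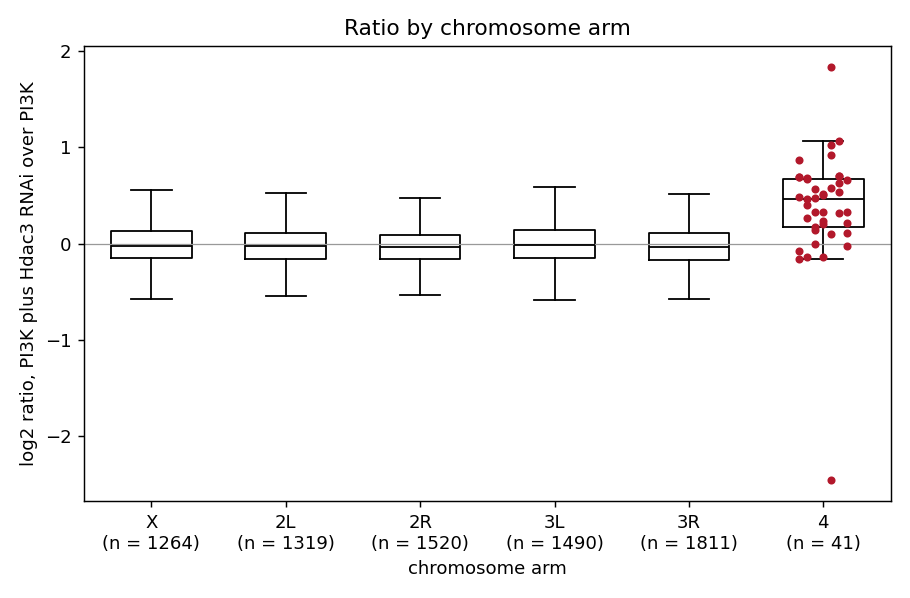
Log2 ratio of PI3K plus Hdac3 RNAi over PI3K by chromosome arm, for genes that reached the floor on both arrays. Boxes span the quartiles with the median as a line, whiskers reach the last value within 1.5 interquartile ranges, values beyond them are not drawn except on chromosome 4, and red points are the 41 genes of chromosome 4. The box of chromosome 4 lies above 0 while the other boxes are centred just below it.

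Hdac3 RNAi against control is the same change of genotype without PI3K, measured on 2 arrays that the comparison above does not use. There, 20 genes were higher by 2-fold or more (0.27%) and 21 were lower (0.284%) of 7407. Over the 7301 genes that reached the floor on all 4 arrays, the log2 ratios with and without PI3K had a Pearson r of 0.28 and a Spearman rho of 0.46 across genes. They had the same sign in 4994 genes (68.4%). Among the 89 of these genes that were at least 2-fold apart in PI3K discs, r was 0.10, rho 0.02 and the sign was the same in 53 (59.6%). By direction, 26 of the 29 higher genes also had a positive ratio without PI3K, and 29 of the 63 lower genes also had a negative one.

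Counting bounds, 11 genes were at least 2-fold apart in the same direction in both backgrounds, 4 higher and 7 lower. The higher ones were Tektin-C, CG12773, CG9021 and Rnf11, whose values are given above. Their ratios were 3.78, 2.63, 2.17 and 1.84 with PI3K and 3.70, 2.67, 2.95 and 1.15 without it, where the value of Tektin-C without PI3K and both values of CG12773 are bounds. The lower ones included AsnS (-1.27 with PI3K and -1.63 without), insc (-1.14 and -1.17), Cyp18a1 (-1.10 and -1.01) and Cpr64Ac (-2.66 and -1.57). Ect3, a beta-galactosidase, had 44.5 with PI3K plus Hdac3 RNAi, 131 with PI3K, 49.9 with Hdac3 RNAi and 253 in control, ratios of -1.55 with PI3K and -2.34 without. CG7900 had 146 with PI3K plus Hdac3 RNAi, 333 with PI3K, 159 with Hdac3 RNAi and 365 in control, ratios of -1.19 and -1.20. CG10912 was under the floor only with both transgenes, and had a bound of -1.25 with PI3K and a ratio of -1.45 without. In all 11 genes except CG10912, both arrays with the RNAi lay on one side and both arrays without it on the other.

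The gene lists can be set side by side in the 2 backgrounds. Each median covers the members that reached the floor on at least 1 array of its own pair, so the 2 medians of a list can rest on different genes. The salivary genes Sgs4 and Sgs5bis, for example, reached the floor only on the PI3K array. The fat body list had a median of -3.24 with PI3K and 0.84 without it, the salivary list -2.84 and 0.06, and the digestive enzyme list -0.74 and -0.10. With PI3K the salivary median was -2.09 under a lower floor and -0.35 without a floor, where the digestive list had -0.08 and -0.026. Of the lists of the disc, wing, hinge and notum factors had 0.32 with PI3K and 0.06 without, EGF receptor genes 0.32 and 0.05, Wingless genes 0.39 and 0.15, and axon guidance genes 0.57 and 0.06. The insulin receptor cascade had 0.22 with PI3K and 0.13 without. Among lists that were lower with PI3K, mitochondrial ribosomal proteins had -0.16 with PI3K and -0.04 without, aminoacyl-tRNA synthetases -0.19 and -0.08, amino acid genes -0.26 and -0.04, and glycolysis -0.20 and -0.04. No test of these differences was possible with 1 array per genotype.

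**Figure D5:**
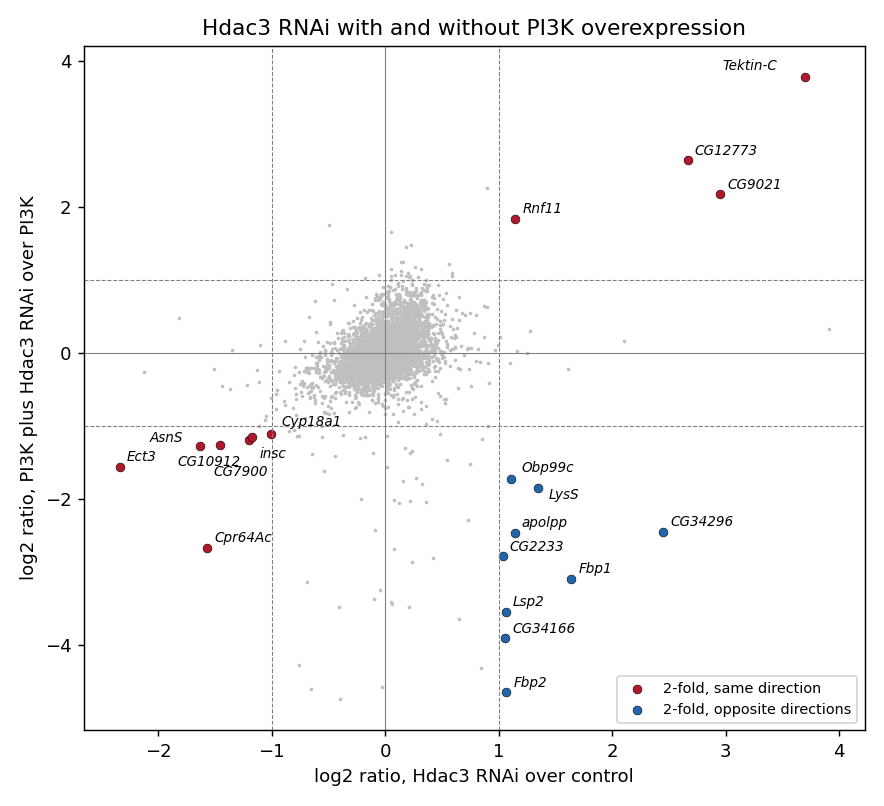
Grey points are the 7301 genes that reached the floor on all 4 arrays, each with its log2 ratio of Hdac3 RNAi over control on the x axis and of PI3K plus Hdac3 RNAi over PI3K on the y axis. Dashed lines mark 2-fold. Red points are the 11 genes past 2-fold in the same direction and blue points the 9 past 2-fold in opposite directions, including Tektin-C, CG12773, CG10912 and CG34296, which are under the floor on at least 1 array. The blue points all lie at the lower right.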

How the data were processed

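Gene expression was measured on 4 Affymetrix arrays, 1 per genotype. The deposited values are intensity on a linear scale for 18952 probe sets, and the submitters' processing notes name MAS5 without a version. Per the labels, Trizol was used for the RNA. Control probe sets (183) and probe sets with several gene symbols (402) or none (4721) in the 2016 annotation were left out, and 13646 probe sets name 11981 genes. Symbols, chromosome and span come from the RefSeq table of Release 6. Of 13646 symbols, 13543 were updated by gene ID and 103 kept. Each array was scaled to a common 2% trimmed mean (284 with PI3K plus Hdac3 RNAi, 281 with PI3K, 283 with Hdac3 RNAi and 287 in control before scaling). The floor was the 90th percentile of receptor probe sets, and log2 was taken above it. A gene took its probe set with the highest mean. Python 3.11.15, numpy 2.4.6, pandas 2.3.3, scipy 1.17.1 and matplotlib 3.10.9 were used. The computation was tested on simulated data.

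The members of the 59 gene lists, and the comparison itself, were chosen with earlier results of these data known. The genes named are the 15 highest and 15 lowest ratios, the 6 largest bounds each way, for each list the 3 members with the largest ratios plus members named for a role, driver and sex genes, and genes past 2-fold in both backgrounds. Members of the higher set named for RNA binding or transcription, and genes of chromosome 4, were chosen after their values were seen. Alternatives changed scaling, floor, probe set choice and fold, and gene span was added after the data were seen. Sequences were not used here.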

Additional observations from a re-analysis of the deposited data

Results flagged for a closer look

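For 9 genes the arrays with and without Hdac3 RNAi differed at least 2-fold, in opposite directions in the 2 backgrounds. The array with the RNAi was lower in PI3K discs and higher without PI3K. With 1 array per genotype these differences were not tested. The difference, as the log2 ratio with PI3K minus that without, was -5.71 for Fbp2, -4.95 for CG34166, -4.73 for Fbp1, -4.60 for Lsp2, -3.81 for CG2233, -3.60 for apolpp, -3.19 for LysS and -2.83 for Obp99c. For CG34296, under the floor with both transgenes, it was -4.90 as a bound. Fbp2, Fbp1, Lsp2 and apolpp are fat body genes of the list above, LysS is a digestive lysozyme gene and Obp99c an odorant-binding protein gene. Fbp1 had 171 with PI3K plus Hdac3 RNAi, 1458 with PI3K, 1422 with Hdac3 RNAi and 457 in control. CG2233 had 157 with PI3K plus Hdac3 RNAi, 1077 with PI3K, 681 with Hdac3 RNAi and 333 in control, and Obp99c had 40.6 with PI3K plus Hdac3 RNAi, 134 with PI3K, 157 with Hdac3 RNAi and 73.1 in control. The choice of these 9 genes fixed that the 2 ratios had opposite signs. In all 9 the array with both transgenes was lower than PI3K, and Hdac3 RNAi was higher than control. Within the fat body list the sums were 3095 with PI3K plus Hdac3 RNAi, 17662 with PI3K, 9953 with Hdac3 RNAi and 5921 in control.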

How the results depend on the processing

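With 1 array per genotype, no array could be left out. No paired analysis was possible because no genotype has a replicate. The counts of 29 higher and 63 lower genes were 30 to 32 and 63 under the 3 other scalings. With a floor of 100 they were 16 and 20 of 5605 genes. With a 1.5-fold threshold they were 224 and 147. After subtracting the median of each of 10 classes of gene span, chosen after seeing the data, 16 were higher and 65 lower. Of the 92 genes past 2-fold, 91 or 92 were shared under other scalings, 74 without a floor and with log2(value + 16), 81 with the mean of all probe sets, and 79 after the span adjustment. Leaving out probe sets with an _s or _x suffix, which can match several transcripts, turned Imp to -0.24 and the list of homeotic and eye genes of other discs to a median of -0.032, against 0.13. Medians within 0.1 log2 of 0 changed sign under at least 1 setting for the proteasome, autophagy, deacetylase, differentiated muscle, hemocyte, neuron, translation factor, G1/S and cell death lists. The mean of all probe sets gave 1.08 for mbl and 0.45 for spen. The muscle precursor median fell to 0.12 with a floor of 100, and the Hippo and Polycomb medians to 0.07 and 0.08 with the span adjustment. Over the settings, CG9021 ranged from 0.46 to 2.27 and CG12773 from 0.74 to 3.41. Values near the floor are the least precise.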

Other observations

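Genes outside the lists joined the lower side with PI3K plus Hdac3 RNAi. The lipid droplet gene Lsd-1, a perilipin, had 31.2 with PI3K plus Hdac3 RNAi, 129 with PI3K, 48.8 with Hdac3 RNAi and 45.0 in control, a ratio of -2.05. Gnmt, a glycine methyltransferase that uses up S-adenosylmethionine, was under the floor with both transgenes and had 15.1 with PI3K plus Hdac3 RNAi, 132 with PI3K, 21.2 with Hdac3 RNAi and 19.0 in control, a bound of -2.30. The tetraspanin genes Tsp42Ep and Tsp42Ek had 27.2 with PI3K plus Hdac3 RNAi and 189 with PI3K (-2.80) and 36.6 with PI3K plus Hdac3 RNAi and 127 with PI3K (-1.80). The non-coding RNA gene lncRNA:alphagamma-element:CR32865 had 537 with PI3K plus Hdac3 RNAi, 1214 with PI3K, 645 with Hdac3 RNAi and 357 in control, a ratio of -1.18. CG1299 had 416 with PI3K plus Hdac3 RNAi, 909 with PI3K, 402 with Hdac3 RNAi and 397 in control, a ratio of -1.13, and was high on the PI3K array alone. CG10126 and CG17124 were lower on both arrays with the RNAi, with ratios of -1.05 and -1.06 with PI3K and -0.81 and -0.85 without. These genes were chosen after their values were seen, and each has 1 array per genotype.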
